A study of Mus musculus with 2 samples.

Results

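The genes described here are 10 mouse genes whose products package, silence or re-activate the mRNAs that an oocyte stores: Cpeb1, Dazl, Eif4enif1, Ddx6, Lsm14a, Lsm14b, Patl2, Ybx1, Ybx2 and Pabpc1l. They were chosen by name, with earlier results of these data known. All 10 were found by Ensembl ID among the 36227 genes of the deposited table, of which 18364 carry counts. RNA was measured in mature oocytes at the MII stage, the arrest in second meiotic metaphase at which eggs await fertilisation, collected after natural ovulation from ICR mice. The aged library came from females of 12 months and the young library from females of 3 months. Each library was made from 18 oocytes lysed together, 3 from each of 6 females, so animals were pooled and each age has 1 library. No treatment or genetic change is given for either group. The study's title names BubR1 as a protector of ageing oocytes, and the comparison of the libraries asks how the oocyte transcriptome differed with maternal age.

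A fully grown oocyte stops transcription and lives on stored mRNA until the embryo's genome is switched on. Stored mRNAs are wrapped in RNA-binding proteins and kept silent with short poly(A) tails, and during meiotic maturation chosen mRNAs gain longer tails and are translated while others are broken down. In this system CPEB1 and DAZL bind 3′ untranslated regions (UTRs), 4E-T (encoded by Eif4enif1) holds the cap-binding protein, the helicase DDX6 works with LSM14 and PAT1 family proteins, Y-box proteins coat the mRNA, and PABPC1L binds the tail. DAZL and PABPC1L are known mainly as activators of translation in maturing oocytes, so the 10 genes are not all repressors.

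The aged library held 18597656 counts and the young library 19475110, and levels are given as CPM, the counts per library scaled to the same sum. The limit that a count of 0 sets was 0.161 CPM in the aged and 0.154 CPM in the young library. A floor of 20 counts, averaged over the libraries, was passed by 10211 genes, whose log2 ratios of aged over young had a median of 0.43 and quartiles of −0.28 and 1.09. Of the genes at least 2-fold apart, 72.5% were higher in the aged library with library totals, 57.2% once the 100 most abundant genes were dropped from the totals, 51.3% with TMM factors (trimmed mean of M-values) and 48.0% after centring on the median gene. Oocyte markers were abundant, with 8 of 8 counted and 91185 CPM in the aged against 167702 CPM in the young library. Most of both sums came from Gdf9 (42795 CPM aged, 97099 CPM young) and H1foo (39296 CPM aged, 53502 CPM young). Nlrp5 was 2.54-fold and Zp3 1.09-fold higher in the aged library, and the other oocyte markers were lower. Of 14 markers of cumulus, granulosa or luteal cells, 8 in the aged and 7 in the young library had no counts, among them Foxl2 and Amh. Their sum was 57.9 CPM in the aged and 25.4 CPM in the young library, most of it from Cyp19a1 with 1056 aged and 436 young counts. The direction of the sum is that of Cyp19a1 alone. Cyp11a1 (1 aged and 27 young counts), Inha (0 and 14) and Gja1 (0 and 11) went the other way. So did Vcan (0 and 4) and Tnfaip6 (1 and 2). Fshr (16 and 0) and Has2 (2 and 0) had counts in the aged library only, and Ptx3 (1 and 1) was equal. Of 6 markers of blood and other somatic cells, 5 in the aged and 2 in the young library had no counts, Hbb-b1 because no row matched it, and their sum was 0.376 CPM in the aged and 4.21 CPM in the young library. The part of such cells in the values below was not tested. With 1 library per age there was no spread between animals and no test. All intervals below are 95% exact intervals that treat reads as independent and cover counting error only. The amplified reads are not independent molecules, so these intervals may be too narrow even for that error.

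The storage genes did not move together. Above the floor, 5 of 9 were 2-fold or more higher in the aged library (Lsm14b, Dazl, Patl2, Cpeb1 and Ybx1), 1 was 2-fold or more lower (Ybx2), and Lsm14a, Eif4enif1 and Pabpc1l lay within 2-fold. Among all genes above the floor 27.9% were 2-fold or more higher and 10.6% 2-fold or more lower. With the whole counting interval past 2-fold, 5 storage genes were higher and 0 lower, against 18.0% and 6.35% of all genes. Relative to the median gene, 3 were 2-fold or more higher (Lsm14b, Dazl and Patl2) and 2 2-fold or more lower (Ybx2 and Pabpc1l), against 16.0% and 17.3% of all genes. The median log2 ratio of the 9 genes was 1.30, against 0.43 for all genes above the floor. The genes were not chosen blind to these data, so these comparisons are description only. In these pooled samples fewer mRNA copies and shorter tails cannot be told apart, because the cDNA was primed with oligo(dT). Both pools held 18 oocytes, and scaled counts do not show the amount of RNA per oocyte.

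**Figure D1:**
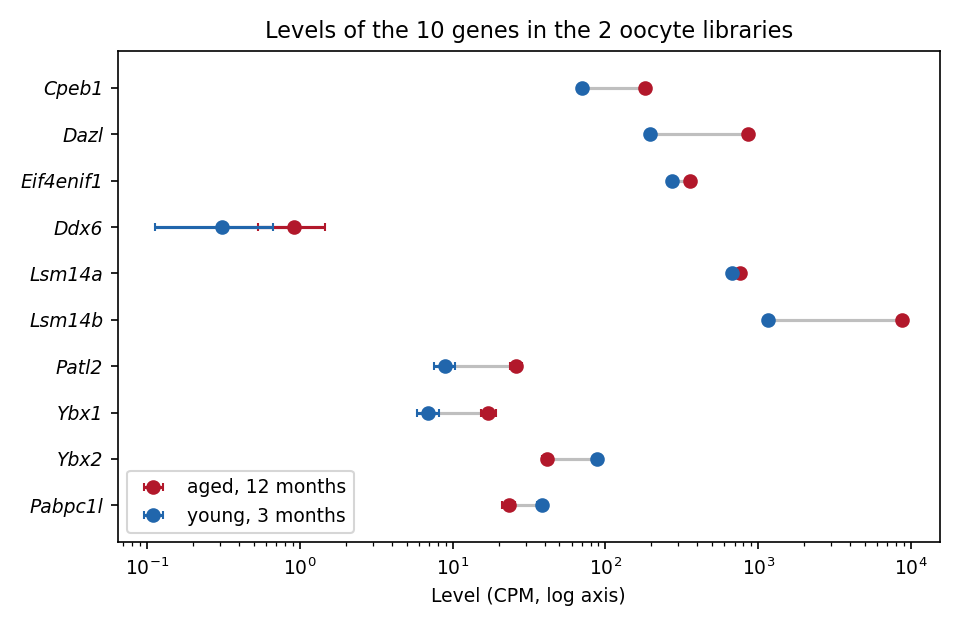
Levels in CPM (log axis) of the 10 genes in the aged library (red) and the young library (blue), with 95% exact Poisson intervals of the counts. Lsm14b lies highest in both libraries, at 8720 CPM (aged) and 1164 CPM (young), and Ddx6 lowest, at 0.914 CPM (aged) and 0.308 CPM (young).

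Cpeb1 and Dazl, the 3′ UTR-binding members, were both higher in the aged library. CPEB1 binds the cytoplasmic polyadenylation element, represses the mRNAs that carry it and, once phosphorylated, promotes the growth of their tails. Cpeb1 (ENSMUSG00000025586, chromosome 7) had 3373 counts in the aged and 1368 in the young library, 181 CPM against 70.2 CPM. It was 2.58-fold higher in the aged library (interval 2.42 to 2.75), a log2 ratio of 1.37, which stood at percentile 82.7 of all genes above the floor. The log2 ratio was 0.99 with TMM factors, 0.94 after centring on the median gene and 0.93 after a correction for length and GC content. DAZL, a germ-cell protein that promotes the translation of maternal mRNAs such as Tpx2 and Tex19.1 in mouse oocytes, had a larger difference. Dazl (ENSMUSG00000010592, chromosome 17) had 15875 counts in the aged and 3806 in the young library, 854 CPM against 195 CPM. That was 4.37-fold higher in the aged library (interval 4.22 to 4.53), at percentile 94.4, and 6.66% of all genes were at least 4-fold higher. Its log2 ratio was 2.13, and 1.21 after a correction for length and GC content.

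The relatives of Cpeb1 were higher as well, by different amounts. Cpeb3 had 902 counts in the aged and 384 in the young library (2.46-fold higher), Cpeb4 354 aged and 231 young counts (1.60-fold), and Cpeb2 76 aged and 24 young counts (3.32-fold, interval 2.07 to 5.49). Within a library the ratio of Cpeb1 to Cpeb3 counts does not depend on scaling, and it was 3.74 (interval 3.47 to 4.03) in the aged and 3.56 (3.18 to 4.0) in the young library. These intervals overlap, so no difference in the balance of Cpeb1 and Cpeb3 was detectable at this depth. Cpeb1 to Cpeb4 was 9.53 in the aged and 5.92 in the young library, and those intervals, 8.54 to 10.7 and 5.15 to 6.84, did not overlap.

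CPEB1 and the polyadenylation machinery read letters near the 3′ ends of mRNAs. Stretches near the annotated ends are printed for Dazl, for the LSM14 pair and for Ybx1. Of the longest coding transcript of each gene in GENCODE mouse release 21, the last 50 bases were searched for the polyadenylation hexamer (AATAAA, or ATTAAA where that was absent), and the 100 bases before it, with the hexamer, for CPE letters (TTTTAT or TTTTAAT), on the mRNA strand only. Capitals mark CPE letters and, where the sequence reaches it, the last hexamer. Each sequence has 30 bases, and positions are GRCm38, a later build than the mm9 of the counts. The Ybx1 sequence stops 70 bases before the annotated end and does not reach the last hexamer. The AATAAA left in lower case there is an earlier one. In Lsm14a a second AATAAA overlaps the CPE letters.
Dazl, chr17:50279412-50279441, minus strand: attacctatttccttgtatacacgAATAAA
Lsm14a, chr7:34344664-34344693, minus strand: ttgtgtTTTTAATaaaggccatggAATAAA
Lsm14b, chr2:180035417-180035446, plus strand: ccactgttggggaaatgcaaactaAATAAA
Ybx1, chr4:119278051-119278080, minus strand: taagaacttcatTTTTAATttgtaataaag

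Lsm14a and Ybx1 held CPE letters in this window, 18 and 67 bases before the hexamer. The other 7 storage genes with a hexamer held none, and Ybx2 had no hexamer in the last 50 bases of its annotated transcript. Among 7474 protein-coding genes above the floor with a hexamer, 21.4% held CPE letters. Genes with a hexamer and CPE letters were 2-fold or more higher in the aged library in 25.8% of cases, those with a hexamer and no CPE letters in 28.5%, and the median log2 ratios were 0.37 and 0.47. The ends that oocytes use may differ from the annotated ones, and a match of letters is not a bound site.

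Eif4enif1, which encodes the eIF4E-binding repressor 4E-T, was close to the median gene. It (ENSMUSG00000020454, chromosome 11) had 6636 counts in the aged and 5304 in the young library, 357 CPM against 272 CPM, 1.31-fold higher in the aged library (interval 1.26 to 1.36). Its log2 ratio of 0.39 became −0.04 after centring on the median gene, so its direction depends on the scaling. Eif4e1b, the oocyte form of the cap-binding protein, had 7085 counts in the aged and 2426 in the young library, 3.06-fold higher (interval 2.92 to 3.20). The general cap-binding gene Eif4e was 1.93-fold higher (446 aged and 242 young counts) and Eif4e2, which encodes a translation-repressing cap-binding protein, 1.85-fold higher (131 aged and 74 young counts). Per library, the ratio of Eif4e1b to Eif4e counts was 15.9 (interval 14.4 to 17.5) in the aged and 10.02 (8.78 to 11.5) in the young library.

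Lsm14b had the largest difference of the 10 genes. LSM14B is an oocyte-enriched protein with an LSm domain that mouse oocytes need for meiotic maturation and for the storage of maternal mRNA, and LSM14A is its widely expressed relative, found in P-bodies. Lsm14b (ENSMUSG00000039108, chromosome 2) had 162169 counts in the aged and 22676 in the young library, 8720 CPM against 1164 CPM. It was 7.49-fold higher in the aged library (interval 7.39 to 7.59), a log2 ratio of 2.90, and 2.48 relative to the median gene. A rise of at least 7-fold was seen in 2.13% of all genes above the floor, and Lsm14b stood at rank 192 of 10211 by ratio. Of the 291 genes that averaged 10000 counts or more it had the highest ratio, and by counts, not corrected for length, it was the gene of rank 8 in the aged and rank 110 in the young library.

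Lsm14a (ENSMUSG00000066568, chromosome 7) had 14203 counts in the aged and 13117 in the young library, 764 CPM against 674 CPM, 1.13-fold higher (interval 1.11 to 1.16). Its log2 ratio of 0.18 became −0.24 after centring on the median gene, −0.19 with TMM factors and −0.10 once the 100 most abundant genes were dropped from the totals. It was −0.68 after a correction for length and GC content, so its direction depends on the processing. Within the aged library Lsm14b counts were 11.4 times those of Lsm14a (interval 11.2 to 11.6), against 1.73 times in the young library (1.69 to 1.77). Lsm14b thus made up 91.9% of the pair's counts at 12 months and 63.4% at 3 months. No other gene's annotated transcript aligned to the longest coding transcript of either over at least 200 bases at 90% identity or more. Over all annotated transcripts, exons of Lsm14a overlap 344 bases of the opposite-strand gene Gm12764. That gene had 56 counts in the aged and 1 in the young library.

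**Figure D2:**
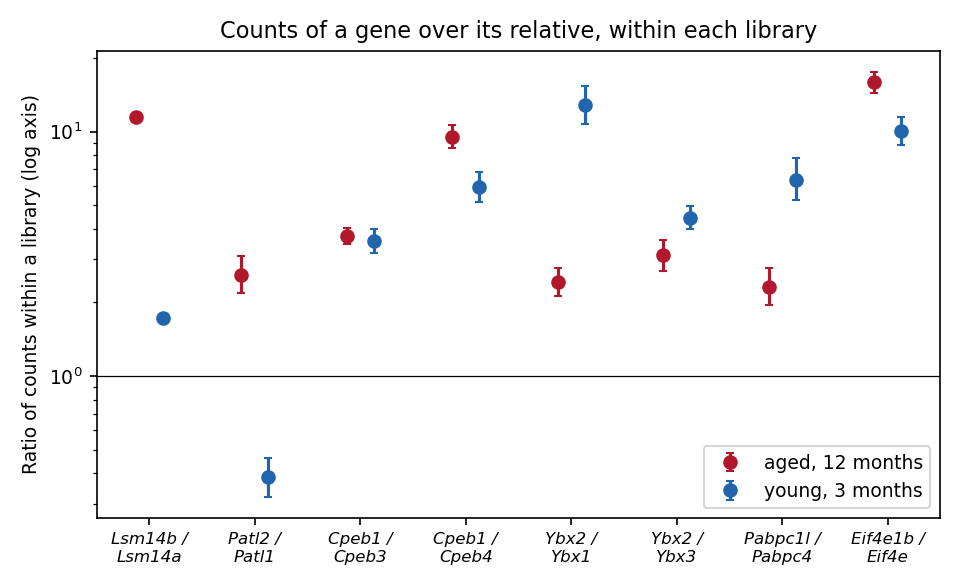
Counts of a gene divided by those of its relative within the same library (log axis), for the aged (red) and the young library (blue), with 95% exact intervals. Lsm14b over Lsm14a and Patl2 over Patl1 were higher in the aged library, Ybx2 over Ybx1 and Pabpc1l over Pabpc4 lower, and Cpeb1 over Cpeb3 had overlapping intervals.

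DDX6 is the DEAD-box helicase that joins LSM14, PAT1 and 4E-T proteins in repressing complexes. Ddx6 (ENSMUSG00000032097, chromosome 9) was nearly unread, with 17 counts in the aged and 6 in the young library. The Poisson intervals of these counts, 9.90 to 27.2 (aged) and 2.20 to 13.1 (young), overlap. Its mean lies below the floor, so it is counted in neither direction: the ratio was 2.97 with an interval of 1.12 to 9.19. Per transcript length the level of Ddx6 was 0.151 CPM per kilobase in the aged and 0.0508 in the young library, whereas Lsm14b, Lsm14a and Eif4enif1, which encode partners of it, had at least 73.4 CPM per kilobase in both and Patl2 had 10.6 in the aged and 3.65 in the young library. Mouse oocytes are known to express Ddx6, so its low count goes against known expression. An annotated pseudogene, Gm13410, resembles Ddx6 (aligned over 1218 bases), and it had no counts in the table. The treatment of reads with several matches is unstated in the labels and the table, and its part in the low count was not tested.

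Patl2, a gene of the PAT1 family whose frog counterpart represses translation in oocytes, was higher in the aged library, while its relative Patl1 was lower. Patl2 (ENSMUSG00000027233, chromosome 2) had 482 counts in the aged and 173 in the young library, 25.9 CPM against 8.88 CPM, 2.92-fold higher (interval 2.45 to 3.49). Patl1, which encodes the widely expressed form, had 186 counts in the aged and 449 in the young library, 2.31-fold lower (interval 1.94 to 2.75). The ratio of Patl2 to Patl1 counts was therefore 2.59 (interval 2.18 to 3.09) in the aged and 0.385 (0.321 to 0.460) in the young library. The more abundant gene of the pair, by counts and also per length (a ratio of 4.49 in the aged and 0.667 in the young library), was Patl2 in the aged and Patl1 in the young library.

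The Y-box genes went in opposite directions. YBX2 (also called MSY2) is the germ-cell Y-box protein that coats and stabilises maternal mRNA in mouse oocytes, and YBX1 is its widely expressed relative. Ybx2 (ENSMUSG00000018554, chromosome 11) had 772 counts in the aged and 1725 in the young library, 41.5 CPM against 88.6 CPM. It was 2.13-fold lower in the aged library, and the interval of 1.96 to 2.33 reached below 2-fold. Ybx1 (ENSMUSG00000028639, chromosome 4) had 318 counts in the aged and 135 in the young library, 17.1 CPM against 6.93 CPM, 2.47-fold higher (interval 2.01 to 3.04). Ybx2 was the more abundant per length in both libraries (a ratio of 2.36 in the aged and 12.4 in the young library), and its count ratio to Ybx1 was 2.43 (interval 2.13 to 2.78) in the aged and 12.8 (10.7 to 15.3) in the young library. Ybx3, the remaining Y-box relative, was 1.49-fold lower, with 248 counts in the aged and 388 in the young library. Ybx2 to Ybx3 counts stood closer, at 3.11 (interval 2.69 to 3.61) in the aged and 4.45 (3.98 to 4.98) in the young library. These pair ratios are not corrected for GC content, which is 63.4% for Ybx2 and 52.15% for Ybx1. Ybx1 has 5 annotated pseudogenes of at least 90% identity, of which 2 are in the table with 6 counts together in the aged and 7 in the young library, so its counts are less certain than those of Ybx2, which has none.

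Pabpc1l encodes the embryonic poly(A)-binding protein, the main cytoplasmic one of oocytes and early embryos. It (ENSMUSG00000054582, chromosome 2) had 433 counts in the aged and 751 in the young library, 23.3 CPM against 38.6 CPM, 1.66-fold lower (interval 1.47 to 1.87). Relative to the median gene its log2 ratio of −0.73 became −1.15, past 2-fold. Pabpc4, a more broadly expressed poly(A)-binding protein gene, was 1.66-fold higher, with 187 counts in the aged and 118 in the young library. Pabpc1, the general form, had only 8 counts in the aged and 4 in the young library. Pabpc1l to Pabpc4 counts stood at 2.32 (interval 1.95 to 2.76) in the aged and 6.36 (5.24 to 7.79) in the young library. Pabpc4 has 11 annotated copies of at least 90% identity and Pabpc1 has 3, so both counts are uncertain.

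**Figure D3:**
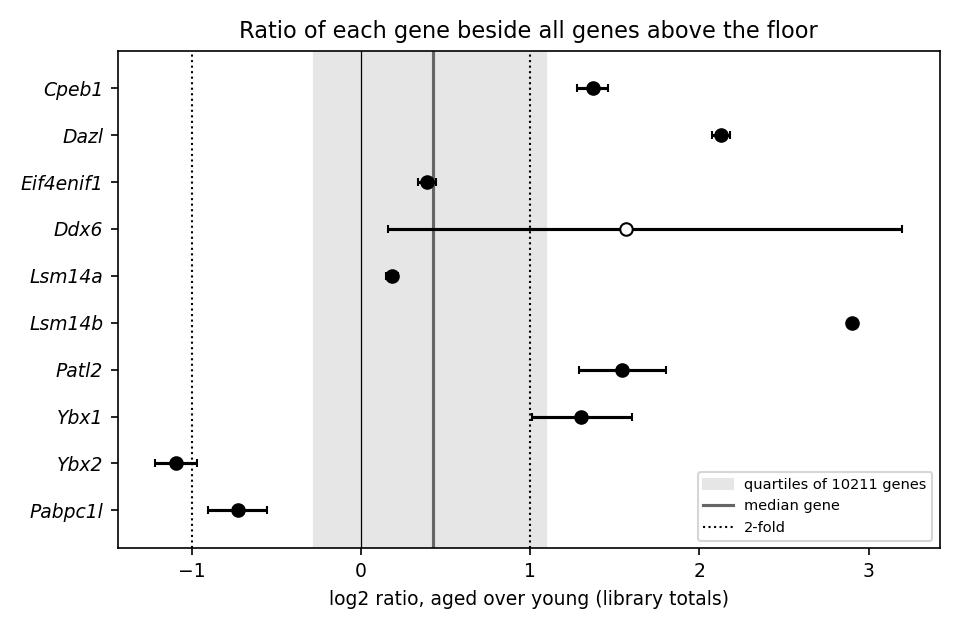
The log2 ratio of aged over young for each gene, with 95% exact counting intervals, over the quartiles (grey band, −0.28 to 1.09) and median (grey line, 0.43) of 10211 genes. Dotted lines mark 2-fold, and the open circle is Ddx6, which lies below the floor.

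Per transcript length, Lsm14b led both libraries, with 3398 CPM per kilobase in the aged and 454 in the young library. In the aged library Dazl (287 CPM per kilobase), Lsm14a (259), Eif4enif1 (96.1), Cpeb1 (58.3) and Ybx2 (24.8) followed. Patl2 (10.6), Ybx1 (10.5) and Pabpc1l (9.89) had overlapping counting intervals there, and their order was not resolved. In the young library the order after Lsm14b was Lsm14a (229), Eif4enif1 (73.4), Dazl (65.7), Ybx2 (52.9), Cpeb1 (22.6) and Pabpc1l (16.4), with Ybx1 (4.26) and Patl2 (3.65) overlapping. Ddx6, with its low count described above, was last in both. The lengths are those of the longest coding transcript, whereas the cDNA was primed with oligo(dT). Whether division by this length suits such counts was not tested, so the order between genes is limited by it. The 10 genes summed to 1.10% of the aged and 0.252% of the young library's counts. Without Lsm14b the other 9 took 0.226% in the aged and 0.135% in the young library.

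Base composition moved with the ratios. Over all genes above the floor, log2 ratios had a median of 1.04 in the decile of lowest GC content and of −0.28 in that of highest GC content. Dazl, at 37.0% GC the poorest of the 10, lay in the first decile and 1.09 above its median. Ybx2, at 63.4% the richest, lay in the last decile and 0.82 below its median. Pabpc1l, the second richest at 54.8%, was 0.82 below its decile. Lsm14b (49.8% GC) and Patl2 (50.1%) share a decile with a median of 0.40 and stood 2.50 and 1.14 above it, while Eif4enif1, in that decile as well, differed from its median by −0.02. After the median of a bin of length and GC content was taken off each ratio, the log2 ratio of Lsm14b was 2.64, of Patl2 1.28, of Dazl 1.21, of Ybx1 1.10, of Cpeb1 0.93, of Eif4enif1 −0.03, of Pabpc1l −0.61, of Lsm14a −0.68 and of Ybx2 −0.91. The part of base composition in the differences was not tested further.

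**Figure D4:**
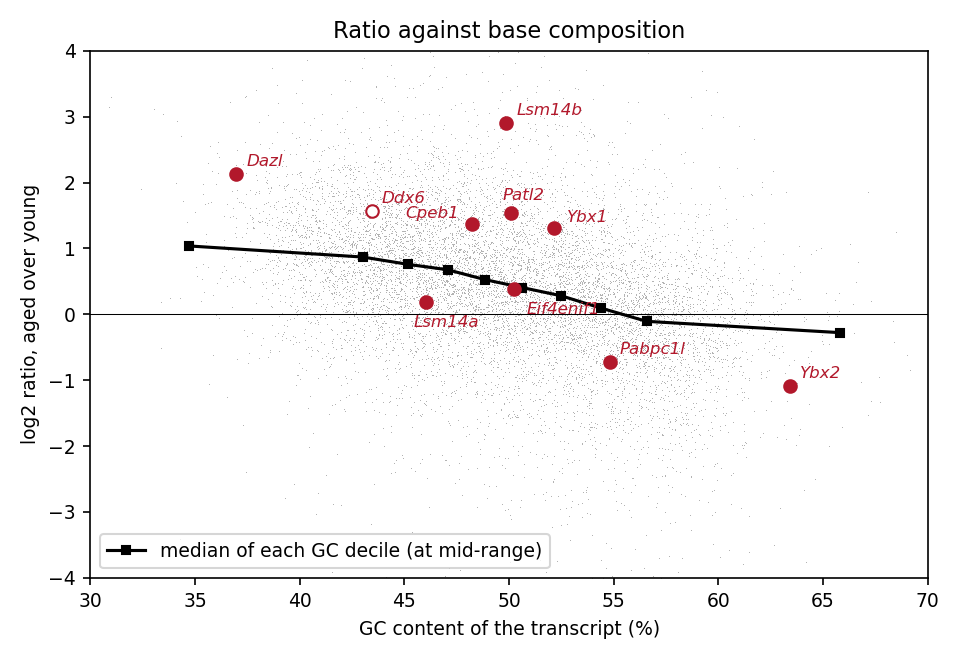
The log2 ratio of aged over young against the GC content of each gene's transcript, for all genes above the floor (grey, drawn within the axis limits), the median of each GC decile (black squares) and the 10 genes (red, Ddx6 open). Dazl is the poorest in GC with a ratio of 2.13 and Ybx2 the richest with −1.09, while Lsm14b stands 2.50 above its decile.

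The other lists, of RNA-granule, cap-binding, tail-binding, polyadenylation and translationally recruited genes, held 65 genes above the floor. Of these, 16 lay 2-fold or more above their young level and 6 as far below it, against 27.9% and 10.6% of all genes. After centring there were 7 and 10, against 16.0% and 17.3% of all genes. Their median log2 ratio was 0.58, against 0.43 for all genes, and that of the storage genes was 1.30, or 0.85 without Lsm14b. The difference between the lists was not tested. Among 25 other repressors and granule proteins 9 were higher and 2 lower, with a median of 0.58. After centring there were 3 and 4, with TMM factors 3 and 3, and after the length and GC correction 2 and 2. Fxr1 and Fxr2, relatives of the fragile X protein, were 3.85-fold higher (158 aged and 43 young counts) and 3.79-fold lower (246 aged and 976 young counts). Nanos1, which encodes a partner of Pumilio proteins, was 3.62-fold higher (2220 aged and 643 young counts). Zar1, whose product assembles mRNA-storing domains around oocyte mitochondria, was 1.35-fold higher at 4773 CPM in the aged and 3536 CPM in the young library. Lsm14b counts were 1.83 times those of Zar1 at 12 months and 0.329 times at 3 months. Per transcript length the ratio was 1.02 at 12 months and 0.183 at 3 months.

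Cap-binding and 4E-binding genes had 1 of 8 higher (Eif4e1b), none lower and a median of 0.61, against 27.9% and 10.6% of all genes. Poly(A)-binding genes and regulators had 1 of 7 higher, none lower and a median of 0.73, against the same shares of all genes. In that list Pabpn1, the nuclear poly(A)-binding protein gene, was 3.49-fold higher (18415 aged and 5518 young counts), the deadenylase gene Parn was 1.92-fold higher, and Pabpn1l, the oocyte relative of Pabpn1, was 1.87-fold lower (2489 aged and 4869 young counts). Among 13 genes of cytoplasmic polyadenylation 4 were higher and 1 lower, with a median of 0.73, against 27.9% and 10.6% of all genes. The 4 became 2 with TMM factors, after centring and after the length and GC correction. Of all genes 17.2%, 16.0% and 13.6% were higher there. The counts of this list thus lie near the shares of all genes. With library totals the 4 were Cpeb2, Cpeb3, the cytoplasmic poly(A) polymerase gene Papd4 (352 aged and 147 young counts, 2.51-fold) and the endonuclease gene Cpsf3 (378 aged and 127 young counts, 3.12-fold). Sympk, which encodes the scaffold symplekin, was 4.30-fold lower, with 16 counts in the aged and 72 in the young library.

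**Figure D5:**
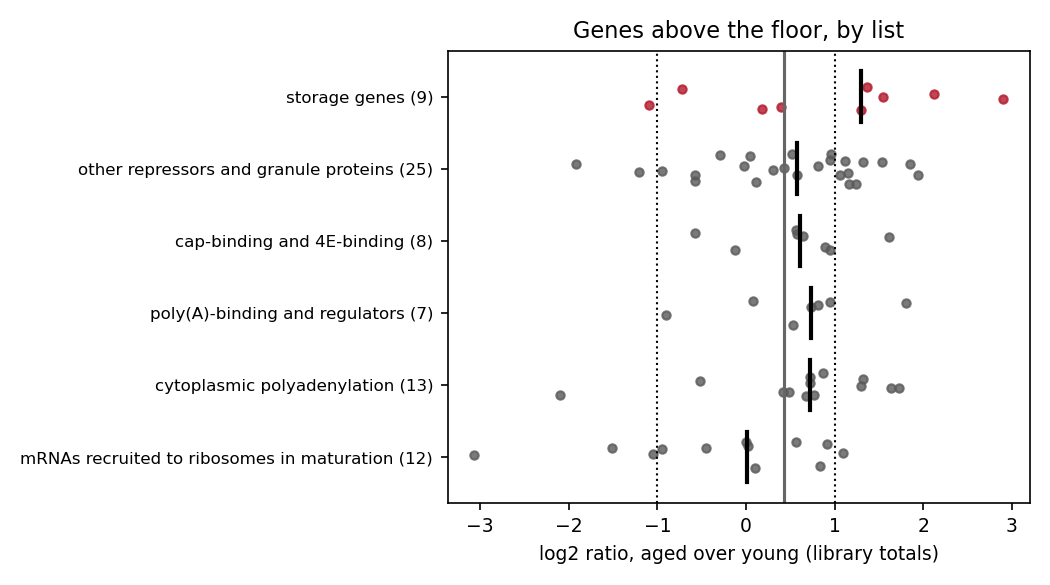
The log2 ratio of aged over young of each gene above the floor, by list, with the number of genes in parentheses. Black bars are list medians, the grey line is the median gene at 0.43 and dotted lines mark 2-fold, and the 9 storage genes (red) have a median of 1.30.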

How the data were processed

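Per the labels' protocols, mRNA of 18 lysed oocytes per library was reverse transcribed with an oligo(dT) primer of 24 bases, the cDNA was tailed and amplified by 18 and then 14 PCR cycles, and libraries were sequenced on a SOLiD instrument. The build was mm9 per the submitters' processing notes. The aligner, counting program, annotation, use of strand and handling of reads with several matches were not given in the sources used here. The authors deposited whole-number read counts per Ensembl gene, unnormalized, with 1 column per library. The log2 fold changes, z score and p-value and q-value columns that the authors deposited compare reads of 2 libraries. The authors' deposited table marks genes at a p-value below 0.001, and Lsm14a carries that mark at 1.13-fold. The share of all genes so marked was not computed, so marks are not counted here. These columns were used for nothing else. From the counts, log2 ratios of aged over young were computed with library totals. Intervals are Clopper-Pearson, or Poisson for a lone count. The limit for a count of 0 is 3 counts. The rule of size was 2-fold and the floor a mean of 20 counts. Ratio and interval code was tested on simulated data. No test between ages was possible, so the planned design has none.

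Symbols came from GENCODE mouse release 21 by Ensembl ID (85.5% of rows, 93.7% of counted rows), 1 list symbol (Papd4) through RefSeq synonyms. Length, GC content and 3′ ends are those of its longest coding transcript, and copies were found with blastn 2.17.0. Python 3.11.15, numpy 2.4.6, scipy 1.17.1, pandas 2.3.3, matplotlib 3.10.9 and R 4.3.3 were used, with edgeR 4.0.16 for TMM factors only. Members and lists were chosen with earlier results of these data known. Named genes were all 10 members, their close relatives, and in each other list up to 3 genes furthest from a ratio of 1; Zar1, Papd4, Dcp1a, Tex19.1, Tpx2 and Cyp19a1 were added after their values were seen. Alternatives were other scalings, floors, an added count, a length and GC correction, an interval rule and 1.5-fold.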

Additional observations from a re-analysis of the deposited data

How the results depend on the processing

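No paired analysis was possible because each age had 1 library, and for the same reason no replicate could be left out. Lsm14b, Dazl, Patl2 and Ybx1 stayed above 0 and Ybx2 and Pabpc1l below 0 on the log2 scale under every alternative that gave them a value. Ddx6 had values only under scaling alternatives, without a floor and with 5 counts added, and all were above 0. Lsm14a fell below 0 under 4 alternatives and Eif4enif1 under 2. Cpeb1 stayed above 0 throughout. Of the storage genes, 5 were 2-fold or more higher and 1 lower. The counts were 3 and 2 with TMM factors and after centring, and 4 and 0 after the length and GC correction. With a floor of 1000 counts, where fewer genes remain, 3 were higher. The lower genes were 2 with totals without the 100 most abundant genes and at 1.5-fold, and 0 when the interval had to pass 2-fold. Their median of 1.30 was 0.93 with TMM factors, 0.88 after centring, 0.88 with a floor of 1000 counts, where fewer genes remain, and 0.93 after the length and GC correction. In the companion lists the 16 higher genes became 7 with TMM factors, 7 after centring and 10 without the 100 most abundant genes. They became 6 after the length and GC correction and 32 at 1.5-fold. The 6 lower genes became 10 after centring. With a floor of 1000 counts, where fewer genes of these lists remain, 6 were higher and 3 lower. Of all genes, 27.9% were higher, and 17.2% with TMM factors, 16.0% after centring and 13.6% after the length and GC correction. The share was 19.5% without the 100 most abundant genes, 21.9% with a floor of 1000 counts, 18.0% by interval and 43.3% at 1.5-fold. Lower genes made up 10.6%, and 16.3% with TMM factors, 17.3% after centring, 18.4% without a floor, 5.70% with a floor of 1000 counts, 6.35% by interval and 17.1% at 1.5-fold. Other scalings subtract a constant from every log2 ratio, 0.37 with TMM factors, 0.43 after centring and 0.29 without the 100 most abundant genes. Ddx6 is the storage gene whose counts are too few to give a direction past 2-fold.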

Other observations

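A further list held mRNAs known to be recruited to ribosomes as mouse oocytes mature, the kind that CPEB1 and DAZL act on. Of 12 above the floor, 1 was 2-fold or more higher in the aged library and 3 were 2-fold or more lower, against 27.9% and 10.6% of all genes. After centring there were 0 and 4, against 16.0% and 17.3%. Their log2 ratios had a median of 0.01, against 0.43 for all genes. All genes that averaged 10000 counts or more had a median of −0.03. That median was 0.42 at 1000 to 10000 counts and 0.46 at 100 to 1000 counts. The 12 genes are spread over these 3 classes. Plat, which encodes tissue plasminogen activator, was 8.39-fold lower (interval 8.04 to 8.76), with 2390 counts in the aged and 20999 in the young library. Orc6, of the origin recognition complex, was 2.86-fold lower (805 aged and 2414 young counts), and Dcp1a, a decapping activator named after its value was seen, was 2.07-fold lower (13568 aged and 29348 young counts). Cnot6l, a deadenylase of the CCR4-NOT complex, was 2.14-fold higher (11055 aged and 5417 young counts). Of the DAZL targets, Tpx2 was 1.78-fold higher. Tex19.1 had a ratio of 1.01 with an interval of 0.970 to 1.06, which includes 1 (3959 aged and 4090 young counts). No test joins these values, since each age has 1 library.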
